A study of Homo sapiens with 12 samples.

Results

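The proximal B-cell receptor (BCR) signalosome was described through the transcripts of 9 genes, CD79A, CD79B, LYN, SYK, BTK, BLNK, PLCG2, PIK3CD and VAV1, taken by name from a table of reads counted on 63677 genes. All 9 passed the filter on low counts, which 18674 genes of the table passed, and each had between 1780 and 33388 reads in every library. The 12 libraries came from JEKO1, JVM2 and MAVER1, established lines of mantle cell lymphoma (MCL), and 4 cultures of each were kept for 48 h, a control (Ctrl) and cultures given ironomycin (Irono), ibrutinib (Ibru) or the pair (Irono+Ibru). Ironomycin, a salinomycin derivative that holds iron in lysosomes, was given at 50 nM to JEKO1 and at 250 nM to JVM2 and MAVER1, and ibrutinib, a covalent inhibitor of the BTK protein, at 0.5 μM to JEKO1, 1.5 μM to JVM2 and 6.25 μM to MAVER1. Every line gave 1 library per treatment, so the 3 lines were the replicates of a treatment (n = 3), and dose and line cannot be told apart. Polyadenylated RNA was measured, not protein or phosphorylation, and in a bulk library a transcript lost from all cells and a loss of the cells that carry it cannot be told apart.

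When antigen or a neighbouring receptor engages the BCR, the membrane immunoglobulin signals through the CD79A and CD79B chains, whose cytoplasmic tails carry paired tyrosines. The Src-family kinase LYN phosphorylates these tyrosines, SYK docks on them, and SYK in turn phosphorylates the adaptor BLNK, on which BTK and PLCG2 meet. PLCG2 then cuts a membrane lipid into messengers that release calcium and activate protein kinase C, while the kinase PIK3CD makes the lipid that recruits BTK and AKT, and the exchange factor VAV1 activates Rac. Chronic BCR signaling is a survival input in mantle cell lymphoma, and BTK is its established drug target.

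The libraries were of even depth, with 35448523 to 38630809 counted reads. TMM factors, which correct for composition, were 1.0448, 1.1157, 1.0471 and 1.1934 in JEKO1 (control, ironomycin, ibrutinib, both drugs) and 0.9141 to 0.9957 in the other lines, so scaling mattered most in JEKO1. The share of reads on genes of the mitochondrial genome fell from 2.05% in the JEKO1 control to 1.27% with ironomycin and 0.88% with both drugs, with 1.92%, 1.56% and 1.21% in MAVER1 and 2.03%, 1.75% and 1.89% in JVM2; its part in the results was not tested. Of 10 B cell markers only CD24 had at most 10 reads in all libraries of a line. It stood at 0.0 CPM in every library, and whether reads could be counted on its identifier was not tested. CCND1, whose translocation defines MCL, reached 3178, 322 and 4252 CPM in the JEKO1, JVM2 and MAVER1 controls. JVM2 lacked SOX11 and CD5, other markers of MCL, which had at most 10 reads in each of its libraries. Summed markers of T and NK, myeloid, and epithelial, stromal and erythroid cells stayed at 0.349 to 56.9 CPM, against 1088 to 1850 CPM for the B cell markers.

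Levels are given as TMM log2 CPM, the log2 of read counts scaled to library size and composition, and differences between libraries as log2 ratios, with the lines in the order JEKO1, JVM2 and MAVER1. Unless another tool is named, adjusted p-values are those of the quasi-likelihood F-test in edgeR, adjusted over all genes tested and called under 0.05. The lines differed more than the treatments, most widely for CD79B and SYK. The span of line means also exceeded the largest span within a line for PIK3CD (0.82 against 0.34), BTK (0.74 against 0.36) and PLCG2 (0.76 against 0.54). It did not for CD79A, LYN, BLNK and VAV1. Over the 4 libraries of a line, CD79B was 2.34 log2 units higher in JEKO1 than in JVM2 (standard error 0.14, adjusted p = 3.91e-08) and 2.02 higher in MAVER1 than in JVM2 (standard error 0.13, adjusted p = 1.45e-07). SYK showed the widest span, 2.62 log2 units between JEKO1 and JVM2 (standard error 0.08, adjusted p = 2.69e-10), with MAVER1 between them. LYN ran the other way, with a log2 difference of -1.20 between JEKO1 and JVM2 (standard error 0.14, adjusted p = 1.18e-05), and VAV1 had the narrowest span of mean level, 0.06. Of the 9 transcripts, 6 differed between JEKO1 and JVM2, 3 higher and 3 lower in JEKO1, where 78.3% of all genes differed (39.8% higher, 38.6% lower). Between MAVER1 and JVM2 4 were higher and 4 lower in MAVER1 (34.7% and 36.5%, 71.2% in all), and between JEKO1 and MAVER1 3 were higher and 2 lower in JEKO1 (34.7% and 31.8%, 66.4% in all). The members' shares were thus near those of all genes. With a log2 fold minimum of 1 the counts were 3, 2 and 0, beside 46.8%, 40.0% and 34.2% of all genes.

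**Figure D1:**
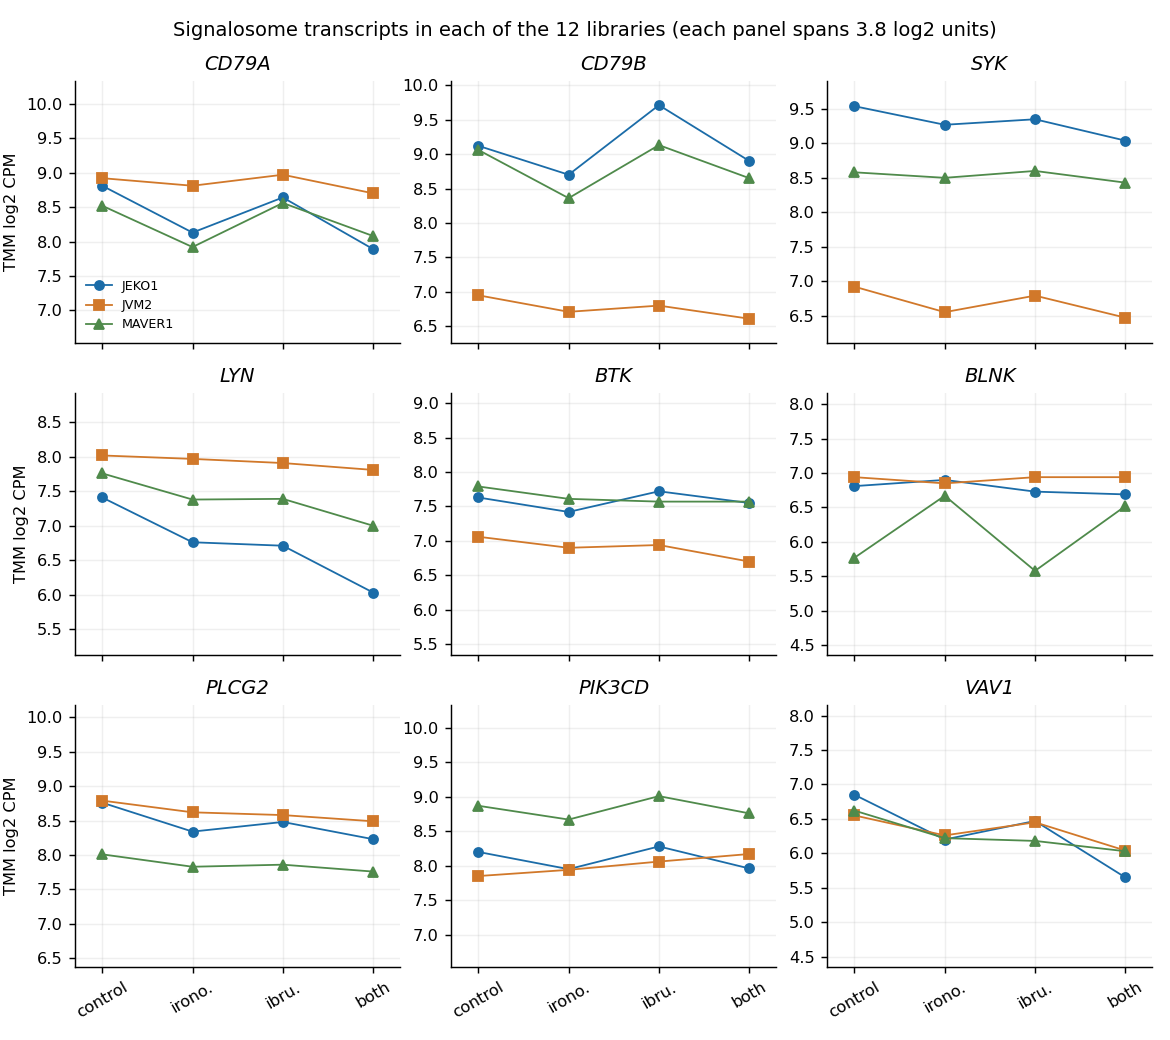
TMM log2 CPM (y axis) of each of the 9 transcripts in the 12 libraries, by treatment (x axis), with 1 point per library and a line joining the 4 libraries of a cell line. SYK and CD79B sit lowest in JVM2, LYN is lowest in JEKO1 with both drugs (6.03), and BLNK in MAVER1 moves from 5.77 to 6.67 with ironomycin.

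Per length, as RPKM (reads scaled to exon length and library size, with exon lengths from a GENCODE v29 annotation of another build than the one counted on), the receptor chains stood above the other members. In JEKO1 the mean RPKM over the 4 libraries was 276 ± 89.8 (SD) for CD79B, 227 ± 65.6 for CD79A and 122 ± 17.3 for SYK, then 43.5 ± 5.16 for PIK3CD, 41.9 ± 3.72 for BTK, 30.1 ± 2.0 for BLNK, 26.4 ± 4.36 for PLCG2, 19.0 ± 6.3 for VAV1 and 18.1 ± 6.96 for LYN. The ranges of CD79B and CD79A overlapped, as did those of PIK3CD and BTK, of BLNK and PLCG2, of PLCG2 and VAV1, and of VAV1 and LYN. In MAVER1 the order by RPKM was CD79B (219 ± 52.5), CD79A (210 ± 45.5), PIK3CD (72.0 ± 7.37), SYK (70.9 ± 3.78), BTK (43.5 ± 3.22), LYN (27.4 ± 5.89), BLNK (20.2 ± 7.31), VAV1 (18.1 ± 3.35) and PLCG2 (17.4 ± 1.33), with CD79B not separable from CD79A, nor PIK3CD from SYK, nor any neighbours from LYN downwards. JVM2 had CD79A at 308 ± 25.0 RPKM, far above CD79B at 52.5 ± 5.28, and the other 7 members lay between 40.8 ± 3.93 (PIK3CD) and 18.8 ± 2.83 (VAV1), with SYK at 19.9 ± 2.88. Taking the longest coding transcript as the length kept the receptor chains first in every line but moved BTK and BLNK above PIK3CD in JEKO1, BLNK above PIK3CD in JVM2, with LYN below BTK and SYK below VAV1 there, and BLNK above LYN in MAVER1.

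The paired chains thus stood at unlike ratios. CD79B over CD79A, per length, was 0.899 in the JEKO1 control and 1.05 in the MAVER1 control but 0.183 in the JVM2 control. Ironomycin gave 1.07, 0.169 and 0.982, ibrutinib 1.52, 0.161 and 1.07, and both drugs 1.46, 0.169 and 1.07, in the order of lines above. By the longest coding transcript, mean RPKM of CD79B and CD79A was 452 and 271 in JEKO1, 86.1 and 368 in JVM2, and 359 and 250 in MAVER1. Ratios near 1 in JEKO1 and MAVER1 thus depended on the length used. JVM2 therefore kept CD79B below CD79A in all 4 libraries, while the ratio in JEKO1 was highest in its libraries with ibrutinib.

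Promoter sequence is shown for 4 members, because VAV1 and SYK fell together with both drugs, BTK, which did not pass the test there, has a promoter with a string also found in theirs, and BLNK was the member whose ironomycin response differed between lines. The RefSeq table (GRCh38.p14) held promoters of 7 of the 9 members, without CD79B and LYN. The 250 bases before the annotated start are given 5′ to 3′ on the gene's strand, with capitals marking GAGGAAGT on either strand (read as ACTTCCTC on the reverse) in VAV1, SYK and BTK, a string found in sites of ETS factors such as PU.1, and CAGCTG, an E-box string, in BLNK.
VAV1, chr19:6772458-6772707, plus strand: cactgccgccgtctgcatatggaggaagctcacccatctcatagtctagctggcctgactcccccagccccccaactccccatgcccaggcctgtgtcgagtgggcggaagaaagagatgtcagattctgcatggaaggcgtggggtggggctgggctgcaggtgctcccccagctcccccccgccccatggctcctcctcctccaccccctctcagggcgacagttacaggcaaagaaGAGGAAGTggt
SYK, chr9:90801569-90801818, plus strand: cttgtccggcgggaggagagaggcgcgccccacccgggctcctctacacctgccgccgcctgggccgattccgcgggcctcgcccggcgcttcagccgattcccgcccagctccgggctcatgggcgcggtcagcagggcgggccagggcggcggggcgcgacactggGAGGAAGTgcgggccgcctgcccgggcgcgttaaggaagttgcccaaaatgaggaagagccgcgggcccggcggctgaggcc
BTK, chrX:101390797-101391046, minus strand: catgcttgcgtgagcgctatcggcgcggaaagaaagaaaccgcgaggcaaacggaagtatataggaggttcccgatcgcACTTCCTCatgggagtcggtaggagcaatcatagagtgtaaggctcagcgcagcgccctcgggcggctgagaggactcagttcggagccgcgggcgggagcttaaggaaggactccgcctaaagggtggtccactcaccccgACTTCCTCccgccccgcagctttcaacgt
BLNK, chr10:96271570-96271819, minus strand: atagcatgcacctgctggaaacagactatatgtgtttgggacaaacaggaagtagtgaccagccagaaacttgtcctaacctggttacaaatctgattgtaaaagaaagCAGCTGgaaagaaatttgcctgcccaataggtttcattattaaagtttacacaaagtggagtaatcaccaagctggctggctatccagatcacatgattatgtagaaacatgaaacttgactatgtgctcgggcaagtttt
GAGGAAGT began 11 bases before the start in VAV1 and 82 bases before it in SYK, and BTK held it at 171 and 29 bases before the start on the other strand. It was 1 of 14 strings searched on both strands, and it stood in 2.17% of 35116 RefSeq promoters of this length and in 3 of the 12 listed for the members, 1 each of VAV1, SYK and BTK. CD79A and PLCG2, which also fell with both drugs, had promoters in the table without it. GAGGAAGT overlaps AGAGGAAG, found in 3.6% of promoters and, among the members, in VAV1. CAGCTG stood in 14.0% of all promoters and in those of BLNK and PLCG2. The octamer ATGCAAAT (1.63%) and TATAAA (10.7%) matched in none of the 12. These are matches of letters only.

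With both drugs, transcripts of 5 of the 9 members fell: VAV1, LYN, CD79A, SYK and PLCG2. Among all genes tested, 28.2% were called in this comparison and 14.0% were called lower, with 14.2% called higher. The members' median log2 fold change was -0.37, beside 0.051 over all genes, and 8 of 9 fitted values were below 0 (7 with library totals in place of TMM factors). Without JEKO1 or without MAVER1 0 members were called, where 40 and 8 genes of the whole table were, and without JVM2 5 (31.7%). With ironomycin alone 0 members were called (0.584% of all genes, 0.412% higher and 0.171% lower), although 8 fitted values were below 0 and 6 had an unadjusted p under 0.05; DESeq2 called 5, CD79A, CD79B, SYK, PLCG2 and VAV1, where it called 12.4% of all genes, and without JVM2 edgeR called CD79A and CD79B (8.31%). With ibrutinib alone 0 were called (0.0%) by edgeR and 0 by DESeq2, and 3 had an unadjusted p under 0.05.

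**Figure D2:**
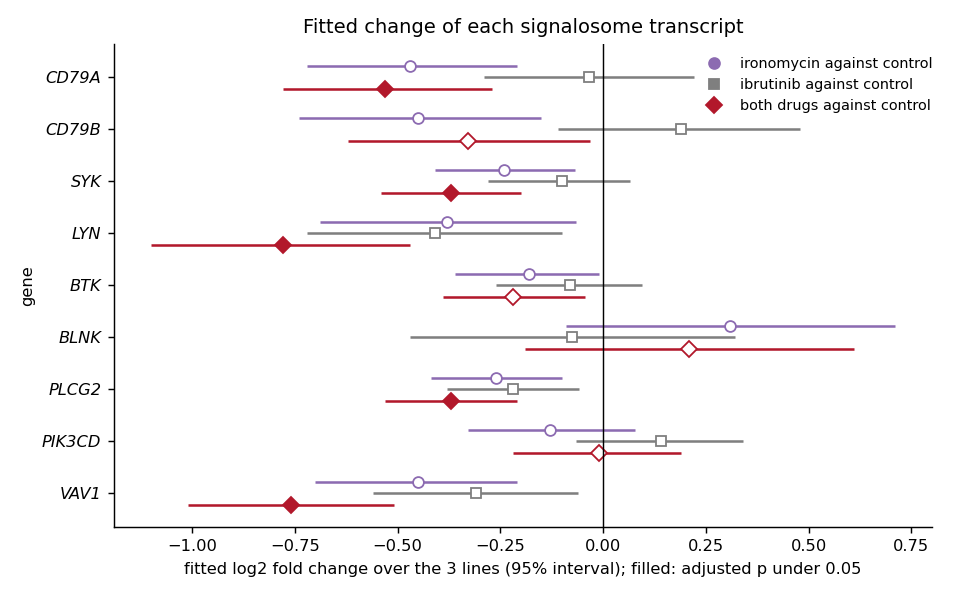
Fitted log2 fold change over the 3 lines (x axis) for each member (y axis), for ironomycin, ibrutinib and both drugs against control. The bar is a normal 95% interval built from the standard error, narrower than the F-test implies. Filled markers passed an adjusted p of 0.05, and these are CD79A, SYK, LYN, PLCG2 and VAV1 with both drugs, from -0.78 for LYN to -0.37 for SYK and PLCG2.

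CD79A, which with CD79B forms the signalling heterodimer of the receptor, stood at log2 CPM 8.81, 8.92 and 8.52 in the controls, 8.13, 8.81 and 7.92 under ironomycin, 8.64, 8.97 and 8.56 under ibrutinib, and 7.89, 8.70 and 8.08 under the combination. Both groups with ironomycin were low in JEKO1 and MAVER1 and little moved in JVM2, so that over the lines the groups overlapped. The fitted change under the combination was -0.53 in log2 units (standard error 0.13, adjusted p = 0.0151). With ironomycin alone it was -0.47 (standard error 0.13, adjusted p = 0.0894), and with ibrutinib -0.035 (95% interval -0.29 to 0.22). Taken within lines, over the libraries with and without ibrutinib, ironomycin lowered CD79A in JEKO1 (-0.71, standard error 0.10, adjusted p = 0.000623) and MAVER1 (-0.54, standard error 0.10, adjusted p = 0.00247), and the value in JVM2 was -0.19 (adjusted p = 0.342). That the effect differed between lines did not pass (adjusted p = 0.088).

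CD79B had log2 CPM of 9.12, 6.95 and 9.06 in the controls, 8.70, 6.71 and 8.36 under ironomycin, 9.71, 6.80 and 9.13 under ibrutinib, and 8.90, 6.61 and 8.65 under the combination. Every ironomycin library lay below the control of its line, and the highest of all 12 was JEKO1 with ibrutinib, at 33388 reads against 22198 in its control. The combination gave -0.33 relative to the controls (standard error 0.15, adjusted p = 0.126) and -0.51 relative to ibrutinib alone (standard error 0.15, adjusted p = 0.0326). The ironomycin effect within a line was -0.63 in JEKO1 (adjusted p = 0.00798), -0.59 in MAVER1 (adjusted p = 0.0109) and -0.22 in JVM2 (adjusted p = 0.463). In a fit with separate effects of each drug in each line, added after the ratios were seen, the ibrutinib value of CD79B in JEKO1 was 0.40 (standard error 0.103, adjusted p = 0.0485). With 1 ironomycin effect shared by the lines it was 0.41 (adjusted p = 0.581), and the planned test of a difference between lines did not pass (adjusted p = 1.0).

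LYN, the Src-family kinase that starts the cascade, had log2 CPM of 7.41, 8.02 and 7.76 in the controls, 6.76, 7.97 and 7.38 under ironomycin, 6.71, 7.91 and 7.39 under ibrutinib, and 6.03, 7.81 and 7.0 under the combination. In JEKO1 and MAVER1 the libraries with a single drug lay at like levels below the control and the library with both lay lowest, while in JVM2 the 4 libraries lay close together. The log2 ratios with both drugs were -1.37 in JEKO1, -0.21 in JVM2 and -0.76 in MAVER1, and the fitted log2 fold change was -0.78 (standard error 0.16, adjusted p = 0.00727). The departure from the sum of the single-drug changes was 0.01 with a 95% interval of -0.43 to 0.45, on the log2 scale. With separate drug effects in each line, ibrutinib gave -0.71 in JEKO1 (standard error 0.074, adjusted p = 0.000392), -0.38 in MAVER1 (standard error 0.073, adjusted p = 0.0566) and -0.13 in JVM2 (standard error 0.073, adjusted p = 0.665). Where the lines shared 1 ironomycin effect, the same estimate in JEKO1 had an adjusted p of 0.223.

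SYK, the kinase that docks on the phosphorylated tails, had log2 CPM of 9.54, 6.92 and 8.58 in the controls, 9.27, 6.55 and 8.50 under ironomycin, 9.35, 6.79 and 8.60 under ibrutinib, and 9.04, 6.47 and 8.43 under the combination. Within each line the library with both drugs was the lowest, and between lines the values did not meet. The fitted log2 fold change with both drugs was -0.37 (standard error 0.09, adjusted p = 0.0122), and the log2 ratios were -0.50, -0.45 and -0.15. SYK was a member whose ironomycin value was larger in JVM2 (-0.34, adjusted p = 0.0575) than in MAVER1 (-0.12, adjusted p = 0.303), and it passed in JEKO1 (-0.29, adjusted p = 0.0231). The difference between lines itself did not pass (adjusted p = 0.423).

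BTK, the target of ibrutinib, had log2 CPM of 7.63, 7.06 and 7.79 in the controls, 7.42, 6.90 and 7.61 under ironomycin, 7.72, 6.94 and 7.57 under ibrutinib, and 7.55, 6.70 and 7.57 under the combination. All ratios to the control of the same line lay between -0.36 and 0.094, and the groups overlapped. The fitted value was -0.22 with both drugs (standard error 0.09, adjusted p = 0.0903), -0.18 with ironomycin (adjusted p = 0.25) and -0.081 with ibrutinib (95% interval -0.26 to 0.094). DESeq2 called BTK lower with both drugs (-0.24, adjusted p = 0.0211).

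BLNK, the adaptor that joins BTK and PLCG2, was the member whose ironomycin effect differed between lines (adjusted p = 0.00232, over 2 coefficients), where 9.38% of all genes were called. Its log2 CPM was 6.81, 6.94 and 5.77 in the controls, 6.90, 6.85 and 6.67 under ironomycin, 6.73, 6.94 and 5.58 under ibrutinib, and 6.69, 6.94 and 6.52 under the combination. In MAVER1 the 2 libraries with ironomycin stood above the 2 without it and near the level of the other lines, in which the libraries scarcely moved. In reads, MAVER1 had 1974 in the control and 1780 under ibrutinib, against 3792 under ironomycin and 3475 under the combination. The fitted ironomycin effect was 0.92 in MAVER1 (standard error 0.09, adjusted p = 6.19e-05), 0.028 in JEKO1 (adjusted p = 0.854) and -0.04 in JVM2 (adjusted p = 0.865), and over the lines together BLNK was not called (0.31, standard error 0.20, adjusted p = 0.397). Without MAVER1 the test of the difference between lines gave an adjusted p of 0.932. Exons of BLNK overlap those of ZNF518A in GENCODE v29, a gene with 598 to 1032 reads per library.

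PLCG2, the phospholipase, had log2 CPM of 8.76, 8.79 and 8.01 in the controls, 8.34, 8.62 and 7.83 under ironomycin, 8.48, 8.58 and 7.86 under ibrutinib, and 8.23, 8.49 and 7.76 under the combination. In each of the 3 lines the control was highest and the library with both drugs lowest, while the groups overlapped across lines. The fitted log2 fold change with both drugs was -0.37 (standard error 0.08, adjusted p = 0.00938). With ironomycin it was -0.26 (adjusted p = 0.109), and with ibrutinib -0.22 (adjusted p = 1.0).

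PIK3CD, the catalytic subunit of leukocyte phosphoinositide 3-kinase, had log2 CPM of 8.20, 7.85 and 8.87 in the controls, 7.95, 7.94 and 8.67 under ironomycin, 8.28, 8.06 and 9.01 under ibrutinib, and 7.96, 8.17 and 8.76 under the combination. JVM2 went up with each treatment while JEKO1 and MAVER1 went down with ironomycin and both drugs. The fitted value with both drugs was -0.011 (95% interval -0.22 to 0.19; 0.11 with library totals), and with ibrutinib, where all 3 ratios were above 0, it was 0.14 (95% interval -0.066 to 0.34). Ironomycin lowered PIK3CD in JEKO1 (-0.29, standard error 0.08, adjusted p = 0.0202), which was not called once scaled by library totals alone (-0.15, adjusted p = 0.162). Its exons overlap those of CLSTN1, which had 6337 to 10648 reads, and whether the counting used strand is not stated.

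VAV1, the exchange factor for Rac, had log2 CPM of 6.85, 6.55 and 6.62 in the controls, 6.20, 6.26 and 6.22 under ironomycin, 6.47, 6.45 and 6.18 under ibrutinib, and 5.65, 6.04 and 6.03 under the combination. The 3 libraries of each treated group lay below all 3 controls, and those with both drugs lay below all libraries with either drug alone. These groups did not overlap in 5 of 5 comparisons, and those of the other 8 members overlapped in each. Overlap across lines also depends on how far the lines differ in level, by 0.06 for VAV1 but 2.62 for SYK and 2.34 for CD79B. It therefore does not rank the members' responses. Among all genes, the 3 libraries with both drugs were all below the controls in 4.01%, those with ironomycin in 1.82% and those with ibrutinib in 0.311%, while the 3 libraries with both drugs were all below those with ironomycin in 0.878% and below those with ibrutinib in 3.71%. The fitted log2 fold change was -0.76 with both drugs (standard error 0.13, adjusted p = 0.00389), -0.45 with ironomycin (standard error 0.13, adjusted p = 0.0894) and -0.31 with ibrutinib (standard error 0.13, adjusted p = 1.0). The departure from the sum of the single changes was 0.0029 (95% interval -0.35 to 0.35).

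Adding ibrutinib to ironomycin moved no member past the test (0 of 9, background 0.0% by edgeR; 2 had an unadjusted p under 0.05, LYN at -0.40 and VAV1 at -0.31, and DESeq2 also called 0 members). Adding ironomycin to ibrutinib lowered CD79A (-0.49, adjusted p = 0.0232), CD79B (-0.51, adjusted p = 0.0326), VAV1 (-0.45, adjusted p = 0.0285) and SYK (-0.26, adjusted p = 0.05 after rounding). That was 4 of 9 members, where 23.3% of all genes were called and 11.5% called lower; without JEKO1 or without MAVER1 it was 0, where 1 and 6 genes of the whole table were called, and without JVM2 4 (27.0%). Departures of the combination from the sum of both single changes ran from -0.069 (CD79B) to 0.11 (PLCG2) on the log2 scale, and 0 members passed (0.0% of all genes) by either tool, with 0 at an unadjusted p under 0.05. Their 95% intervals reached from -0.59 to 0.54 for BLNK and from -0.12 to 0.33 for PLCG2, so departures within them were not detectable. Comparisons that share the control or the combination libraries are not independent of each other.

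By line, ironomycin lowered 7 of 9 members in JEKO1, where 33.3% of all genes were called, 17.0% higher and 16.2% lower; with library totals 4 remained, without SYK, PLCG2 and PIK3CD, where 34.4% of all genes were called and 72.1% of these calls were higher. In JVM2 0 were called (3.27%, 1.35% lower; 2 had an unadjusted p under 0.05 and DESeq2 called 1, SYK, and 5.15% of all genes). In MAVER1 CD79A and CD79B fell and BLNK rose, 3 of 9 against 32.7% of all genes (16.0% lower, 16.6% higher), while DESeq2 called 6 (27.1%). These fits shared 1 ibrutinib effect over the lines. With separate effects of each drug in each line, 6 members were called in MAVER1 (35.9%), also LYN, VAV1 and PIK3CD, all lower. In JVM2 that fit called 2, SYK and VAV1 (5.07%). With a log2 fold minimum of 1, 0 members were called within JEKO1 (7.35%), JVM2 (0.712%) or MAVER1 (6.35%), nor with both drugs against control (6.29%) or against ibrutinib (4.66%). Marker lists moved beside them. Plasma cell markers, 6 genes of terminal B cell differentiation such as XBP1 and PRDM1, summed to 443, 868, 366 and 889 CPM in JEKO1 (control, ironomycin, ibrutinib, both drugs), to 1076, 1625, 1124 and 1772 CPM in MAVER1 and to 1958 to 2106 CPM in JVM2. With ironomycin in JEKO1, MZB1 (208 to 455 CPM), IRF4 (186 to 272) and XBP1 (36.8 to 102) carried most of the rise. TNFRSF17 moved from 7.86 to 33.7 CPM there, PRDM1 from 3.12 to 4.57 and SDC1 down from 1.38 to 1.17. The summed B cell markers were 1625, 1387, 1445 and 1348 CPM in JEKO1, 1435, 1185, 1290 and 1088 CPM in MAVER1 and 1753 to 1850 CPM in JVM2, and the part of either shift in the members' changes was not tested. Some B cell markers rose with ironomycin against these sums, among them FCRLA in JEKO1 (246 to 305 CPM) and CD72 in MAVER1 (49.6 to 108 CPM). Separate effects of ibrutinib in each line, added after the data were seen, called 3 members in JEKO1 (LYN and VAV1 lower, CD79B higher, where 5.7% of all genes were called), 0 in JVM2 (0.155%; 1 at an unadjusted p under 0.05) and 0 in MAVER1 (0.53%; 3 at an unadjusted p under 0.05). With 1 ironomycin effect shared by the lines, 0 were called in JEKO1 (0.091%; 3 at an unadjusted p under 0.05), and no other tool was run for these added fits. The planned test that the ibrutinib effect differed between lines called 0 members (0.0%, with 0 at an unadjusted p under 0.05, and DESeq2 also called 0).

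**Figure D3:**
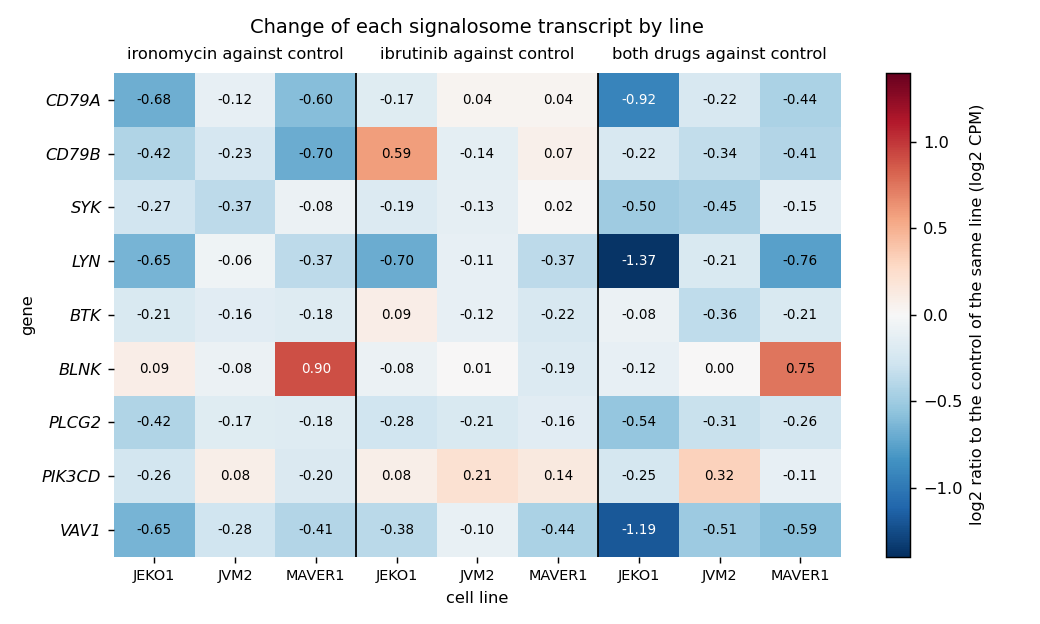
Log2 ratio of each member (rows) to the control of the same line, for ironomycin, ibrutinib and both drugs in JEKO1, JVM2 and MAVER1 (columns), with blue below and red above 0. LYN (-1.37) and VAV1 (-1.19) in JEKO1 with both drugs are the lowest values, and BLNK in MAVER1 is the highest, at 0.90 with ironomycin and 0.75 with both drugs.

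Most members have paralogs that can take the same position, and these differed by line. Of the LYN family, JEKO1 had BLK at 27.0 ± 4.39 RPKM (SD over 4 libraries) beside LYN at 18.1 ± 6.96, JVM2 had FGR at 61.0 ± 0.851, FYN at 31.0 ± 2.13 and SRC at 21.3 ± 1.61 beside LYN at 39.4 ± 2.44, and MAVER1 had BLK at 8.85 ± 1.46 beside LYN at 27.4 ± 5.89. LYN made up 33.1% of the summed RPKM of 8 Src-family kinases in the JEKO1 control and 17.3% with both drugs, 59.5% and 41.0% in MAVER1, and 24.5% and 21.5% in JVM2. In the SYK family, ZAP70 was at 11.3 ± 3.27 RPKM in JEKO1 and at most at 0.212 RPKM in MAVER1 and JVM2, so that SYK held 86.6% to 94.5% of the pair in JEKO1 and at least 99.5% elsewhere. By the longest coding transcript SYK held 76.2% to 89.5% in JEKO1 and at least 99.1% elsewhere. BTK held at least 97.5% of its family in JEKO1 and MAVER1 and 77.8% to 86.6% in JVM2, where TEC stood at 5.79 ± 1.26 RPKM. BLNK held at least 94.0% beside LCP2 and CLNK.

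Among the effectors, the shares of PLCG2 and VAV1 were more even than those of SYK, BTK and BLNK. PLCG2 held 46.5% to 75.3% of the RPKM summed with PLCG1, lowest in MAVER1 (17.4 ± 1.33 against 18.3 ± 1.17 RPKM) and highest in JVM2 (29.4 ± 2.65 against 10.2 ± 0.503). By the longest coding transcript PLCG2 held 50.6% to 78.3%, so a mean below PLCG1 in MAVER1 depended on the length used. VAV1 held 49.7% to 74.7% beside VAV2 and VAV3, and 57.3% to 79.7% by the longest coding transcript. PIK3CD held at least 74.7% beside PIK3CA, PIK3CB and PIK3CG, and its closest paralog was PIK3CA in JEKO1, PIK3CB in JVM2 and PIK3CG in MAVER1. Of 22 relatives of the members (paralogs and the adaptors LAT and LAT2), 21 were tested, and with both drugs 2 rose, ZAP70 among them (0.90, standard error 0.22, adjusted p = 0.0142), and LCK fell (-1.03, standard error 0.26, adjusted p = 0.0156), 3 of 21 beside the 28.2% of all genes; their median log2 fold change was 0.051, that of all genes. ZAP70 rested on JEKO1, since its highest count was 15 reads in JVM2 and 41 in MAVER1.

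**Figure D4:**
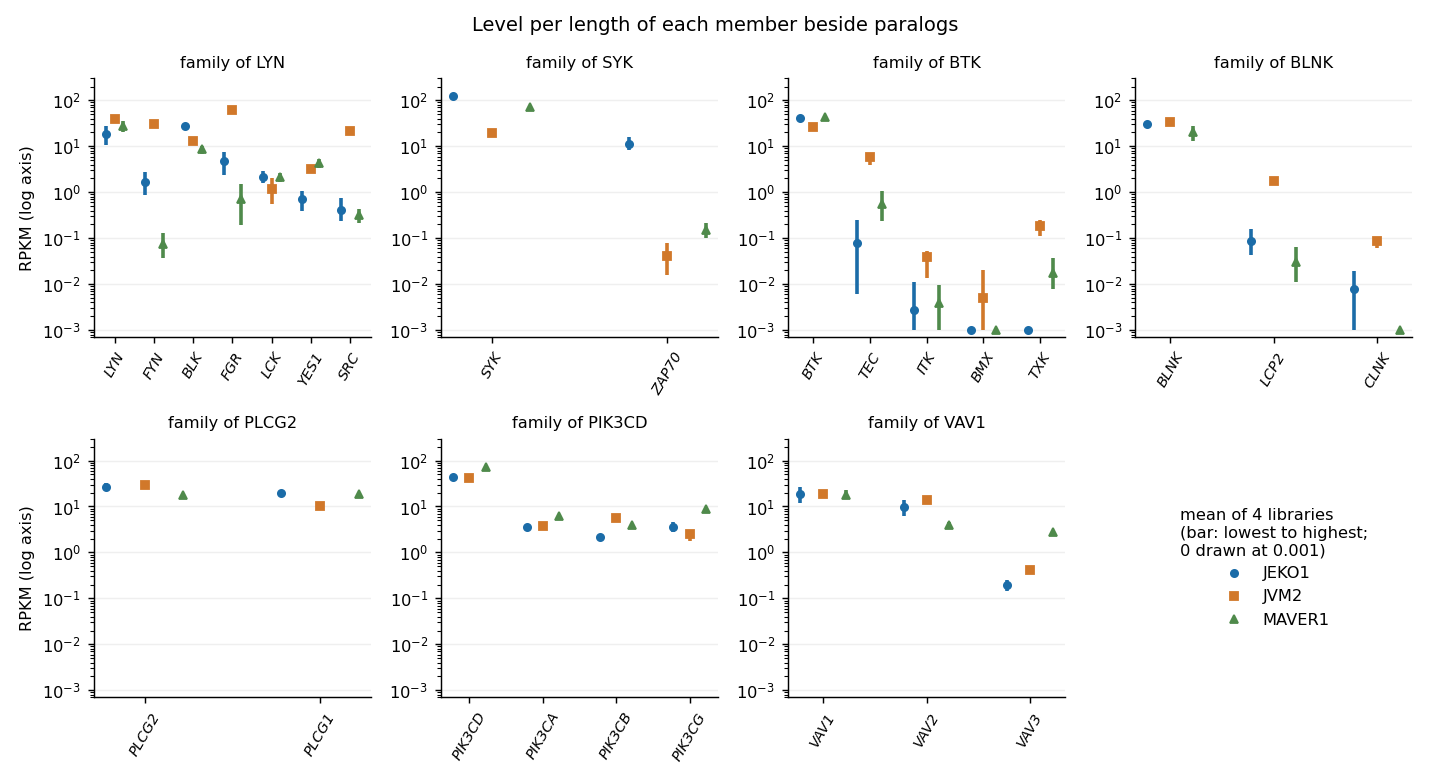
RPKM on a log axis (y axis) of LYN, SYK, BTK, BLNK, PLCG2, PIK3CD and VAV1 beside paralogs (x axis), as the mean over the 4 libraries of each cell line with a bar from the lowest to the highest library. FGR and FYN stand beside LYN in JVM2, BLK in JEKO1 and MAVER1, while SYK, BTK and BLNK lie above their relatives in each line. The gap is narrowest for BTK in JVM2 (26.2 against 5.79 for TEC).

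Other parts of the pathway were read from lists. Of 20 co-receptor and proximal adaptor genes, all tested, 5 fell and 3 rose with both drugs, 8 of 20 beside 28.2%, with a median of 0.094 (0.051 over all genes). PTPRC, the CD45 phosphatase that keeps Src-family kinases active, fell (log2 fold change -0.97, standard error 0.15, adjusted p = 0.00346), and CSK, the kinase that restrains them, fell (-0.61, standard error 0.11, adjusted p = 0.00432). PAG1, which anchors CSK at the membrane, rose (1.03, standard error 0.26, adjusted p = 0.0162), with ratios of 1.42, 0.09 and 1.28, and the adaptor GAB2 rose (1.9, standard error 0.45, adjusted p = 0.012), with 2.74, 0.21 and 2.66. GRB2, an adaptor to Ras, fell (-0.31, standard error 0.08, adjusted p = 0.0149).

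Of 12 PI3K subunits, AKT kinases and lipid phosphatases, 11 were tested, and with both drugs 1 rose and 1 fell, the latter AKT1 (-0.29, standard error 0.07, adjusted p = 0.0154), 2 of 11 beside 28.2% of all genes. Of 24 genes downstream of PLCG2, 22 were tested, and 4 fell and 1 rose, 5 of 22 beside 28.2% of all genes, with a median of -0.088 (0.051 over all genes). Among them PRKCD, a protein kinase C, fell (-0.49, standard error 0.13, adjusted p = 0.0205), STIM2, a calcium sensor of the ER, fell (-0.35, standard error 0.09, adjusted p = 0.0212), NFATC1 fell (-0.66, standard error 0.21, adjusted p = 0.0353), and ITPR1, a calcium channel opened by the PLCG2 product, rose (0.73, standard error 0.22, adjusted p = 0.0343). PRKCB, the isoform that acts in BCR signaling, fell with ironomycin within JEKO1 (-0.82, standard error 0.12, adjusted p = 0.000651) and MAVER1 (-1.35, standard error 0.13, adjusted p = 4.54e-05), and its effect differed between lines (adjusted p = 0.00399).

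Of 7 immunoglobulin constant genes, 5 were tested and 4 fell with both drugs, beside 14.0% of all genes called lower, with a median of -0.78 (0.051 over all genes). IGHM, the constant region of the IgM heavy chain, fell (log2 fold change -0.79, standard error 0.24, adjusted p = 0.0342), with ratios of -0.39, -1.67 and -0.28, so the largest change was in JVM2. With ironomycin the JVM2 effect on IGHM was -1.23 (standard error 0.14, adjusted p = 0.00225), and the effect differed between lines (adjusted p = 0.0128). The light chain genes IGLC2 and IGLC3 share nearly identical sequence, so their reads could have been split by the counting. In JVM2 their ratios with both drugs were -1.36 and -1.20.

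Likeness was measured as Pearson's r of log2 CPM centred within lines, over the 12 libraries and 11384 named genes, and is a description, since the libraries share lines, treatments and depth. The genes nearest to LYN were PTPN6 (r = 0.993), MAPK13 (0.984) and SNX8 (0.977), and those nearest to VAV1 were GRB2 (0.983) and COMTD1 (0.974). CD79A was nearest to GPSM3 (0.977), SOWAHD (0.972) and RBM4 (0.969), and CD79B to GMFG (0.966), S1PR4 (0.959) and PKIG (0.951). For SYK they were EIF4G3 (0.972), GLIPR2 (0.963) and WAS (0.948), for BTK PYCARD (0.936), COQ8B (0.926) and FAM86JP (0.904), and for BLNK GINM1 (0.971), FOXN3 (0.970) and VAT1 (0.968). PLCG2 was nearest to GNL1 (0.964), ESYT1 (0.953) and SIPA1 (0.950), and PIK3CD to NR6A1 (0.941), PITPNC1 (0.938) and DEPP1 (0.934). Among the members, VAV1, PLCG2, LYN and SYK had r of 0.75 to 0.94 with each other, CD79A had 0.76 to 0.83 with these 4 and 0.78 with CD79B, and BLNK had values below 0 with all 8 others, from -0.65 with CD79B to -0.14 with VAV1.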

How the data were processed

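RNA-seq covered 12 libraries of 3 MCL cell lines. The counts the authors deposited are raw, per Ensembl gene; the submitters' processing notes name GRCh37, STAR and DESeq2, with no versions, and the counting tool is not given in the sources used here. No column was left unused (0). Of 63677 genes, 52181 were named from a table of identifiers. The test was the quasi-likelihood F-test of edgeR 4.0.16 (R 4.3.3), with TMM factors, a filter by treatment (filterByExpr), the cell line as block and Benjamini-Hochberg adjustment over 18674 genes; a call was an adjusted p-value under 0.05, without a fold minimum. DESeq2 1.42.0, other scalings, no filter, no block, leaving out lines and a log2 fold minimum of 1 were alternatives. Effects within a line came from models with a drug term per line. Each line had 1 library per treatment, so no replicate cultures of a treatment entered these fits. Their p-values measure the spread left around the fitted terms. That spread mixes noise between cultures with any drug effects that the terms leave out. Log2 CPM used a prior count of 2. The block rests on the lines, since same-numbered libraries come from the same line. Deviations from treatment means correlated at 0.926 to 0.976 within lines (18 pairs) and at -0.684 to -0.127 between lines and treatments (36 pairs). Deviations of the 3 lines sum to 0 in each treatment, which forces negative values between lines. These correlations are thus a description and do not test the block. Nothing states that libraries of a line came from separate experiments. Members and lists (12) were chosen with earlier results of these data known. Genes outside the members were named as up to 5 per list and comparison with the smallest adjusted p under 0.05, the paralog with the highest level per length, and the 3 genes of highest likeness; other names were chosen after their values were seen. The tests were also run on simulated counts, with ironomycin effects planted in all lines or in JEKO1 alone. Those counts held no separate effects of both drugs in each line, so they do not check the p-values within lines. Some genes are not reported here. Python 3.11.15, pandas 2.3.3 and matplotlib 3.10.9 served for tables and plots.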

Additional observations from a re-analysis of the deposited data

Results flagged for a closer look

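BLNK was flagged because its response to ironomycin differed across the lines in a direct test of that difference (quasi-likelihood F-test in edgeR, 2 coefficients, adjusted p = 0.00232). Its log2 ratio to the control was 0.90 under ironomycin and 0.75 under the combination in MAVER1, 0.093 and -0.12 in JEKO1, and -0.08 and 0.0018 in JVM2.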

How the results depend on the processing

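Counts of members called moved by over 1.5 times as follows, with the share of all genes called under that setting. With both drugs against control (5 called), 0 were called without the cell line block, on the 6 libraries compared alone (0.0696%) and with a log2 fold minimum of 1, and 0 to 5 with a line left out: 0 without JEKO1, 0 without MAVER1 and 5 without JVM2. DESeq2 gave 6 there, with BTK (33.7%). Both drugs against ibrutinib (4) gave 2 with library totals (23.4%), 0 without the block (0.0%), 0 on the 6 libraries (2.84%), 0 with the fold minimum, and 0 to 4 with a line left out (4 without JVM2, otherwise 0). Ironomycin against control (0) gave 5 with DESeq2 (12.4%) and 0 to 2 with a line left out (2 without JVM2, CD79A and CD79B). Within lines, JEKO1 (7) gave 4 with library totals (34.4%) and 0 with the fold minimum; JVM2 (0) gave 1 without the filter on low counts (2.4%), 1 with DESeq2 (5.15%) and 2 with both drugs free in every line (5.07%); MAVER1 (3) gave 6 with DESeq2 (27.1%), 6 with both drugs free (35.9%) and 0 with the fold minimum, and LYN (without the filter) and PIK3CD (RLE) were each called under 1 more setting. The difference of the ironomycin effect between lines (1) gave 2 without the filter (6.25%), 3 with DESeq2 (11.6%), and 0 to 1 with a line left out, with 0 without MAVER1. Ibrutinib within JEKO1 (3) gave 0 with the ironomycin effect shared. With the fold minimum the line comparisons gave 3 (JEKO1 against JVM2, from 6), 2 (MAVER1 against JVM2, from 8) and 0 (JEKO1 against MAVER1, from 5). Smaller moves there were CD79B, called between JEKO1 and MAVER1 with RLE, DESeq2, library totals and no filter, CD79A called there and PIK3CD called between JEKO1 and JVM2 with library totals, and PLCG2, not called between JEKO1 and JVM2 without the filter or, at 0.056, with library totals. The block removed the differences in level between lines from the spread; without the block no gene of the whole table was called with both drugs against control (0 of 18674). For other alternatives the cause was not tested. Without JEKO1 40 genes of the table were called with both drugs against control and without MAVER1 8.

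Directions turned where values lay near 0. With a line left out, the log2 fold change with ibrutinib ran from -0.076 to 0.037 for CD79A and from -0.033 to 0.33 for CD79B, turning without JEKO1. Both drugs against control gave -0.059 to 0.36 for BLNK (turning without MAVER1) and -0.21 to 0.10 for PIK3CD (turning without JEKO1, and at 0.037 without MAVER1). Both drugs against ironomycin gave -0.16 to 0.017 for CD79A (without JEKO1) and -0.12 to 0.038 for BTK (without JVM2), and against ibrutinib -0.02 to 0.44 for BLNK (without MAVER1). Departures from the sum ran from -0.089 to 0.028 for CD79A (turning without JVM2), -0.21 to 0.11 for CD79B (JEKO1), -0.066 to 0.0035 for SYK (MAVER1), -0.016 to 0.028 for LYN (JEKO1, and at -0.01 JVM2), -0.019 to 0.10 for BTK (MAVER1), -0.059 to 0.023 for BLNK (JEKO1) and -0.12 to 0.067 for VAV1 (MAVER1). With RLE size factors the departures of LYN and VAV1 were -0.0016 and -0.009, with DESeq2 -0.0017 and -0.009. Library totals gave PIK3CD 0.11 (both drugs), BTK 0.024 (both drugs against ironomycin), departures of 0.0057 (CD79A), 0.0069 (SYK), 0.0082 (BLNK) and 0.0092 (PIK3CD), JEKO1 against JVM2 values of 0.078 (BLNK), 0.056 (PLCG2) and 0.19 (VAV1), BTK 0.13 (JEKO1 against MAVER1) and BLNK 0.021 (ironomycin in JVM2). Without the filter BLNK with ironomycin in JEKO1 was -0.0083. Library totals moved the median of all genes with both drugs from 0.051 to 0.18 and the calls from 2655 higher and 2613 lower to 3934 and 1563; the members called remained at -0.66 (LYN), -0.64 (VAV1), -0.40 (CD79A), -0.25 (SYK) and -0.24 (PLCG2). Every member had 1780 reads or more in each library, and 3 lines limit the precision.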
